A study of Mus musculus with 6 samples.

Results

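The endogenous opioid system was described here through 7 genes: the precursors Pdyn (prodynorphin), Penk (proenkephalin) and Pnoc (prepronociceptin), and the receptors Oprk1 (kappa), Oprm1 (mu), Oprd1 (delta) and Oprl1 (nociceptin receptor). They were taken from a count table of 45777 genes by their symbols alone, and all 7 were found and passed the filter on low counts, among 19227 genes tested. The libraries came from the anterior cingulate cortex, a frontal midline area, of BALB/c mice, an inbred strain. In the stress group, 3 libraries came from mice given social defeat, a procedure that exposes an animal to attacks by a larger aggressor, over 5 days. In the non-stress group, 3 libraries came from mice without defeat. No genotype or drug is named in the labels, and the sources used here do not give age, sex or the number of animals behind a library, so p-values measure the spread between these libraries, which may be technical.

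Opioid precursors are cut by prohormone convertases at pairs of basic residues, and the released peptides are stored in dense-core vesicles. Dynorphins act mainly at the kappa receptor, enkephalins at the delta and mu receptors, and nociceptin at Oprl1, which binds the classical opioids poorly. All of these receptors couple to Gi/o proteins, which inhibit adenylyl cyclase, open inward rectifier potassium channels and close presynaptic calcium channels. Dynorphin and the kappa receptor are known for their part in aversive responses to stress. In the cortex the precursors are made in part by subsets of GABAergic interneurons.

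The coding sequence of the precursors shows what these transcripts deliver, and is printed for the opioid core of each peptide because the peptides, not the precursors, act on the receptors. The stretches were read from the GENCODE transcripts of GRCm38, the build the submitters name, which is the sequence of C57BL/6J and not of BALB/c. In each 27-base line the capitals mark the 4 codons of the core (tyrosine, glycine, glycine, phenylalanine, or phenylalanine at the start in nociceptin), and the 2 codons before them encode the basic pair at which the precursor is cut. The Pdyn copies lie in exon 4 of 4 (chr2:129688067-129688258, minus strand), the Penk copies in exon 2 of 2 (chr4:4133842-4134354, minus strand) and the Pnoc copy in exon 3 of 4 (chr14:65404872-65404898, minus strand).
Pdyn, start of alpha-neoendorphin: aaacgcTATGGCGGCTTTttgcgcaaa
Pdyn, start of dynorphin A: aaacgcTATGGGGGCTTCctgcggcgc
Pdyn, start of dynorphin B: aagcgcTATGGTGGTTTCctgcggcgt
Penk, enkephalin copy 1: aagaagTACGGAGGCTTCatgaaacgg
Penk, enkephalin copy 2: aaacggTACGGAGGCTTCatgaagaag
Penk, enkephalin copy 3: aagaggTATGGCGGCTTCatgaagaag
Penk, enkephalin copy 4: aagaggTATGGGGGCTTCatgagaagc
Penk, enkephalin copy 5: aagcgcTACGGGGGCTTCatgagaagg
Penk, enkephalin copy 6: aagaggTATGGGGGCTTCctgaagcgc
Penk, enkephalin copy 7: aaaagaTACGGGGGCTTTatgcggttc
Pnoc, start of nociceptin: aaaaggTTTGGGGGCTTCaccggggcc
Pdyn thus encoded 3 copies and Penk 7, while Pnoc encoded 1. The codon after the core was for leucine in all 3 Pdyn copies, and for methionine in 6 of the Penk copies and leucine in 1. The 10 copies in Pdyn and Penk used 7 spellings of the core. A Penk transcript therefore carries more opioid cores than a Pdyn transcript, a fact that counts of transcripts do not include. The longest run of identical bases between the Pdyn and Penk transcripts was 15, and the longest between any pair of the 7 genes was 25 (Oprk1 and Oprl1).

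The libraries held 41623899 to 47212982 counts each. They did not divide by group alone: on principal component 1 (34.5% of the variance) non-stress 2 and 3 lay at 37.4 and 27.4, and non-stress 1 at -11.7, beside the stress libraries at -20.4 to -14.9. The labels name no batch, so values without non-stress 1, and with non-stress 1 alone as the reference, are given where they change a result. The 10 listed markers of cortical excitatory neurons were all tested and summed to 2026 to 2195 CPM (counts relative to the library's total count, with edgeR's TMM scaling) per library. No other region was compared, so this sum does not check the tissue label.

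Of the 7 genes, Pdyn was the one that stood lower in every stress library, and with all 6 libraries edgeR called none. By edgeR's quasi-likelihood test 0 of 7 had a Benjamini-Hochberg adjusted p under 0.05, where 0.00520% of all genes tested did, and 1 of 7 had an unadjusted p under 0.05, against 12.1% of all genes (6.27% lower in stress). DESeq2's Wald test called 1 of 7, Pdyn (1.05% of genes with an adjusted p), limma-voom called 0 without quality weights (0.0104% of all genes) and 0 with them (0.0728%), and edgeR called 0 once a trend on GC content and length was removed (0.0173%). The groups did not overlap for 2 of 7 genes, against 17.9% of all genes: Pdyn was lower in stress (9.21% of all genes) and Pnoc higher (8.70%). Fitted fold changes were above 0 for 4 genes and below 0 for 3 (50.2% of all genes were below 0), and their median was 0.046 on the log2 scale, where that of all genes tested was -0.0005.

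**Figure D1:**
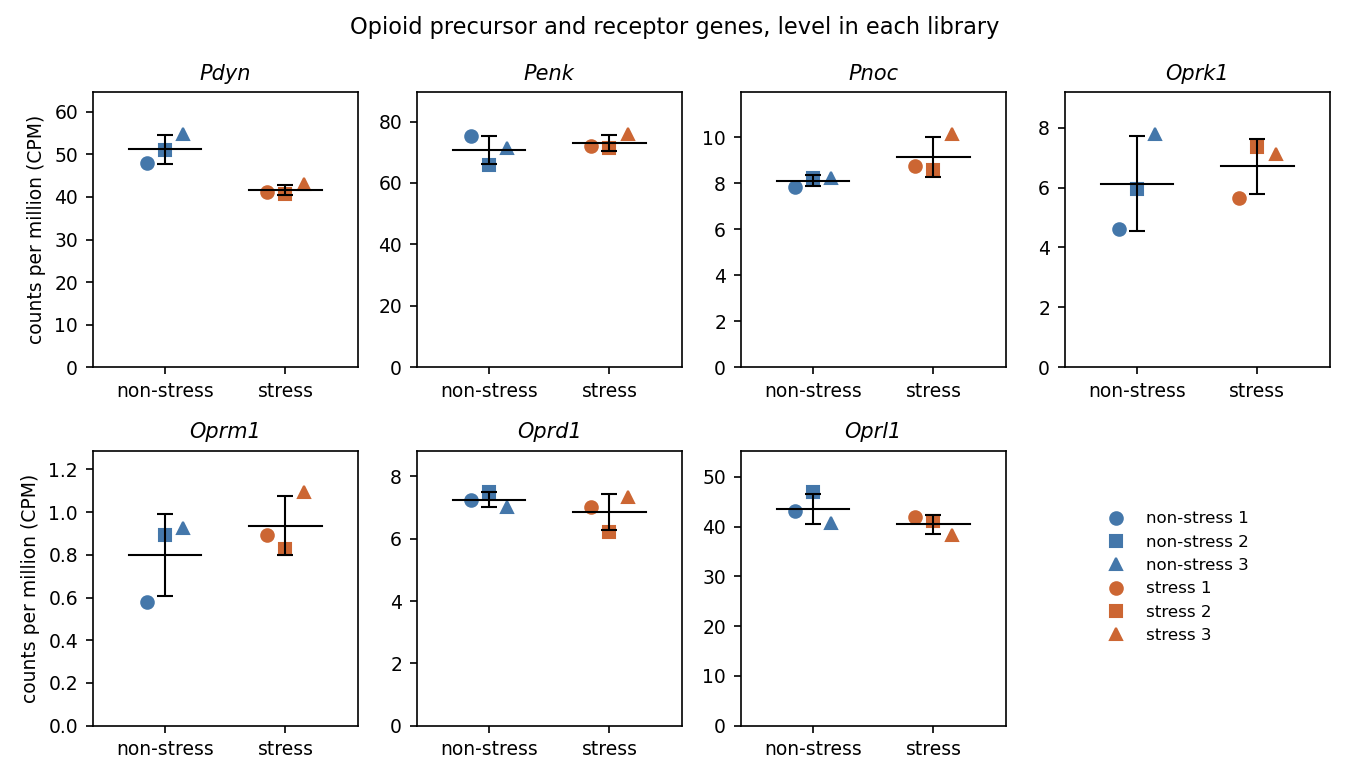
Level of each opioid gene in CPM (vertical axis from 0) in the 3 non-stress and 3 stress libraries. Points are libraries, horizontal lines are group means and bars are 1 SD. Pdyn lies at 47.9 to 54.8 CPM without defeat and at 40.6 to 43.0 CPM after it, while the groups overlap for Penk and for all 4 receptors.

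Pdyn (NCBI Gene 18610, chromosome 2, 129686549 to 129699938, minus strand, GRCm38.p6) had 2070, 2395 and 2306 counts in non-stress 1, 2 and 3, against 1712, 1768 and 1928 counts in stress 1, 2 and 3. Scaled to library size these were 47.9, 50.9 and 54.8 CPM in the non-stress libraries, and 41.3, 40.6 and 43.0 CPM in the stress libraries. Every stress library lay below every non-stress library, and among those without defeat non-stress 1 came nearest. The means were 51.2 ± 3.45 and 41.6 ± 1.22 CPM (SD, n = 3), so the stress mean was 18.8% lower. The log2 fold change was -0.30 (SE 0.06, 95% interval -0.43 to -0.16), with an unadjusted edgeR p of 0.000659, which ranked 41 among the 19227 genes. After Benjamini-Hochberg adjustment over all genes edgeR's p was 0.309, so the difference did not pass, whereas DESeq2 gave an adjusted p of 0.0109. Without non-stress 1 Pdyn passed edgeR's threshold (log2 fold change -0.35, adjusted p = 0.00858), in a fit that called 3.85% of all genes. With non-stress 1 alone as the reference the log2 fold change was -0.20 (adjusted p = 0.246), a fit in which the lone library is assumed to vary like the stress libraries. In bulk tissue, fewer cells that make prodynorphin and less of its RNA per cell cannot be told apart.

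The sequence upstream of 1 of the 2 Pdyn start sites in the RefSeq table is shown because Pdyn had the smallest p of the 7 genes, and because cyclic AMP, AP-1 and calcium-sensitive factors are known to act on this gene. It covers 250 bases (chr2:129699939-129700188, minus strand, RefSeq, GRCm38.p6), with capitals for GTCA on either strand, the core letters bound by the calcium-sensitive repressor that Kcnip3 encodes.
Pdyn, upstream region: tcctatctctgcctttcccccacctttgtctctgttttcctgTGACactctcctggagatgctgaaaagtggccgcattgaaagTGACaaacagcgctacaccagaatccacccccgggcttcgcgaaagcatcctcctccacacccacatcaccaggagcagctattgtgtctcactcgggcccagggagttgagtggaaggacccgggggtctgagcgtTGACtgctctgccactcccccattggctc
GTCA occurred 3 times, and it occurs in 80.2% of the 32851 upstream regions of this length. The cyclic AMP response element TGACGTCA (1.55% of regions), its shorter form TGACG (17.8%) and the AP-1 site TGACTCA (4.46%) were not found on either strand, which says only that these letters are not in this window. The region before the other start site (chr2:129698659-129698908) gave the same counts, 3 of GTCA and 0 of the rest. The reverse complement of GTCA is contained in each of those longer motifs. Upstream regions were found for 4 of the 7 genes (Pdyn, Oprm1, Oprd1 and Oprl1).

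Penk (Gene 18619, chromosome 4, 4133536 to 4138815), the source of the enkephalins, was the member with the most counts, 18840 over the 6 libraries. It stood at 75.1, 65.9 and 71.3 CPM in non-stress 1, 2 and 3 and at 71.9, 71.3 and 76.0 CPM in stress 1, 2 and 3. The highest and the lowest non-stress libraries enclosed all stress libraries but stress 3. Its fitted log2 fold change was 0.046 (SE 0.06, 95% interval -0.08 to 0.18; edgeR adjusted p = 0.781), so the interval allows from 0.943 to 1.13 times the non-stress level. With non-stress 1 alone as the reference the sign turned (-0.04), as it did without non-stress 2, where the value was -0.0003.

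Pnoc (Gene 18155, chromosome 14, 65400673 to 65425564), which encodes nociceptin, was less abundant. Its level was 7.83, 8.23 and 8.25 CPM in the non-stress libraries and 8.73, 8.56 and 10.1 CPM in the stress libraries. All stress values lay above all non-stress values, with stress 3 highest and the other stress libraries close to non-stress 2 and 3. The means were 8.10 ± 0.238 and 9.14 ± 0.866 CPM (SD, n = 3). A log2 fold change of 0.18 (SE 0.10, 95% interval -0.04 to 0.39) did not pass edgeR's test (unadjusted p = 0.101, adjusted p = 0.487), and without stress 3 it was 0.09.

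Pdyn was set against other opioid genes within each library, a ratio that library scaling does not touch. On the log2 CPM scale (prior count 2), Pdyn minus Penk was -0.65, -0.37 and -0.38 in non-stress 1, 2 and 3, and it was -0.80, -0.81 and -0.82 in the 3 stress libraries. The stress values lay together and below all non-stress values, and non-stress 1 lay between. The mean difference, stress minus non-stress, was -0.34 (exact permutation test, two-sided, p = 0.10, or 0.15 adjusted over 3 ratios by Benjamini-Hochberg), and 0.10 is the smallest p that 3 against 3 libraries allow. Pdyn minus Pnoc was 2.61, 2.62 and 2.73 without defeat and 2.24, 2.24 and 2.08 after it, again with no overlap (mean difference -0.47, exact p = 0.10, adjusted 0.15). Pdyn minus Oprk1, the ligand precursor against its own receptor, was 3.36, 3.09 and 2.81 without defeat and 2.85, 2.45 and 2.58 after it. Here stress 1 lay above non-stress 3, so the groups overlapped (mean difference -0.45, exact p = 0.20, adjusted 0.20). All 3 differences kept their sign when each library was left out in turn. No ratio could pass a threshold of 0.05 in this design.

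**Figure D2:**
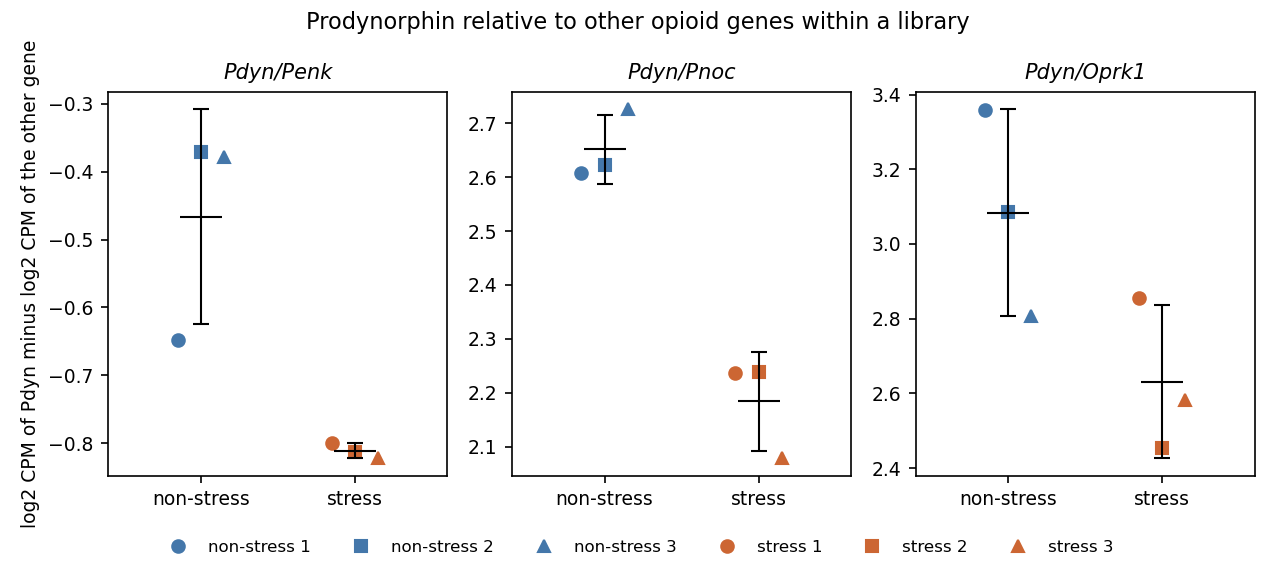
Difference between the log2 CPM of Pdyn and that of Penk, Pnoc or Oprk1 within each library (vertical axis, log2 units, not from 0). Points are libraries, and marks with bars are group means and 1 SD. The stress libraries lie at -0.82 to -0.80 for Pdyn/Penk, below non-stress at -0.65 to -0.37, while stress 1 and non-stress 3 overlap for Pdyn/Oprk1.

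Among the receptors, Oprl1 (Gene 18389, chromosome 2, 181715000 to 181720985) had by far the most counts, 1717 to 2205 per library. It stood at 43.1, 46.9 and 40.8 CPM without defeat and 42.0, 41.1 and 38.3 CPM after it. The groups overlapped because non-stress 3 lay below stress 1 and 2. The log2 fold change was -0.11 (SE 0.07, 95% interval -0.25 to 0.04; edgeR adjusted p = 0.518), and without non-stress 2, the highest library, it was -0.05.

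Oprd1 (Gene 18386, chromosome 4, 132110188 to 132144486), the delta receptor, had 7.25, 7.48 and 7.01 CPM without defeat and 7.02, 6.22 and 7.35 CPM after it. Only stress 2 lay below the non-stress range. For Oprd1 the fitted log2 fold change was -0.08 (SE 0.10, 95% interval -0.30 to 0.15; edgeR adjusted p = 0.782), and it was -0.01 without stress 2 and 0.016 after removal of the GC and length trend.

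Oprk1 (Gene 18387, chromosome 1, 5588450 to 5606134), the kappa receptor to which dynorphins bind, varied more between libraries. It stood at 4.63, 5.95 and 7.79 CPM in non-stress 1, 2 and 3 and at 5.67, 7.37 and 7.13 CPM in stress 1, 2 and 3. The non-stress libraries alone spanned more than all stress libraries, and non-stress 1 and 3 were the lowest and highest of the 6. For Oprk1 the fitted log2 fold change was 0.14 (SE 0.18, 95% interval -0.28 to 0.55; edgeR adjusted p = 0.794). It was -0.03 without non-stress 1, 0.34 without non-stress 3, and 0.54 (adjusted p = 0.274) with non-stress 1 alone as the reference, so its direction rests on which non-stress library is used.

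Oprm1 (Gene 18390, chromosome 10, 6758593 to 7038209), the mu receptor at which morphine acts, had 25, 42 and 39 counts in non-stress 1, 2 and 3, against 37, 36 and 49 counts in stress 1, 2 and 3. That is 0.579, 0.893 and 0.927 CPM against 0.892, 0.826 and 1.09 CPM. Non-stress 1 was low, and the other libraries of both groups lay together apart from stress 3. The log2 fold change was 0.23 (SE 0.26, 95% interval -0.34 to 0.80; edgeR adjusted p = 0.743), or 0.04 without non-stress 1 and 0.70 (adjusted p = 0.548) with it alone as the reference. In the GENCODE annotation 96 exon bases of Oprm1 overlap exons of Ipcef1 on the opposite strand, which had 1819 to 2022 counts per library, and whether counting used strand is not stated. Without strand, reads of the pair over those bases cannot be told apart.

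**Figure D3:**
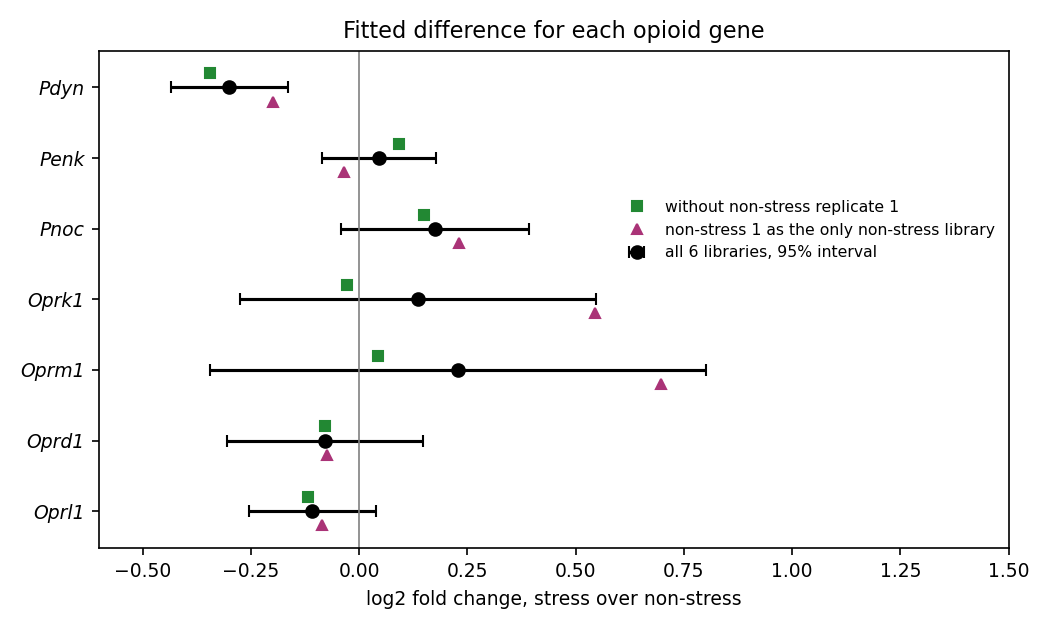
Fitted log2 fold change, stress over non-stress, of each opioid gene with all 6 libraries (black points with 95% intervals), without non-stress 1 (green squares) and with non-stress 1 alone as the reference (purple triangles). The interval of Pdyn, -0.43 to -0.16, is the one that does not reach 0, and the values of Oprk1 and Oprm1 move most between the fits, from -0.03 to 0.54 and from 0.04 to 0.70.

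Levels of different genes were compared per length, as CPM per kilobase of annotated exon. In the non-stress libraries the order was Penk (43.3 ± 2.84; SD, n = 3), Pdyn (17.7 ± 1.19), Oprl1 (11.6 ± 0.819), Pnoc (3.75 ± 0.110), Oprd1 (1.80 ± 0.0590), Oprk1 (0.669 ± 0.174) and Oprm1 (0.0995 ± 0.0239). In the stress libraries the order was the same, with Penk at 44.7 ± 1.56 and Pdyn at 14.4 ± 0.424. Over all 6 libraries the ranges of neighbours in this order did not overlap: Pdyn spanned 14.1 to 19.0 and Oprl1, the gene below it, 10.2 to 12.5. Oprl1 was thus the receptor of highest level per length, above the precursor of its own ligand, whereas Oprk1 lay below Pdyn by more than a factor of 10 in each library. The level depends on the length chosen. With the longest transcript in its place Oprk1 stood at 1.31 ± 0.340 in non-stress and spanned 0.990 to 1.67 over all libraries, which overlaps Oprd1 at 1.55 to 1.86. Oprm1 moved more, from 0.0995 to 0.330 in the non-stress mean, and remained the lowest of the 7.

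**Figure D4:**
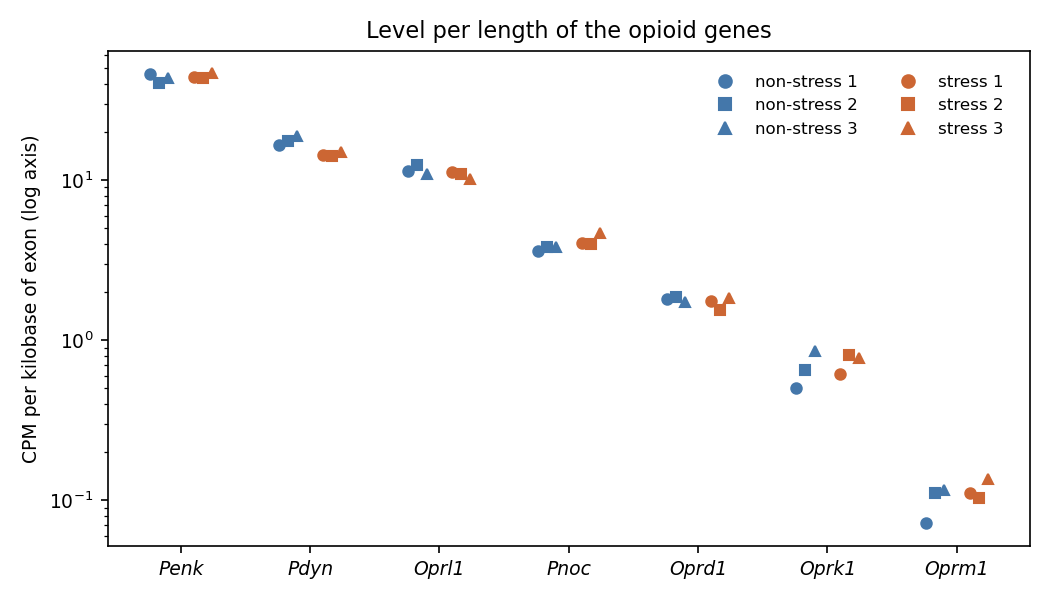
Level of each opioid gene as CPM per kilobase of annotated exon (vertical log axis) in each library, ordered from the highest to the lowest mean. Penk lies at 40.3 to 46.5 and Oprm1 at 0.0720 to 0.136, and the ranges of neighbouring genes do not overlap at these lengths.

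None of the enzymes that cut the precursors passed the test. The counts of each list are to be read against the shares over all genes, 12.1% with an unadjusted p under 0.05 and 1.05% called by DESeq2. In a list of 9 processing genes edgeR called 0, DESeq2 called 0, and 1 had an unadjusted p under 0.05, with a median log2 fold change of 0.002. Cpe, the carboxypeptidase that trims the basic residues, averaged 3354 ± 89.8 (SD) and 3358 ± 49.2 CPM, and Pcsk2, the convertase PC2 that completes dynorphin cleavage, had means of 314 and 300.1 CPM (n = 3). Furin, a convertase of the secretory pathway, had the smallest p, with 13.1, 13.8 and 9.48 CPM without defeat and 8.99, 8.35 and 9.27 CPM after it (log2 fold change -0.45, edgeR adjusted p = 0.344). Non-stress 3 lay just above the highest stress library, apart from the others of its group. Pcsk5 (log2 fold change 0.17, adjusted p = 0.421) and Pcsk1, the convertase PC1/3 (0.16, adjusted p = 0.460), were the next by p, and Pcsk1 was called when non-stress 1 was left out. Of 11 genes for peptide breakdown and scavenging, 9 had values below 0 with a median of -0.09, edgeR and DESeq2 called 0, and 1 had an unadjusted p under 0.05. That was Ece1, an endothelin-converting metalloprotease, at 32.5 ± 2.39 and 28.6 ± 0.929 CPM (log2 fold change -0.18, edgeR adjusted p = 0.371). Ackr3, a scavenger receptor that takes up opioid peptides, showed a log2 change of -0.15 (adjusted p = 0.450), and Ace, a peptidase, one of -0.44 (adjusted p = 0.483).

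Downstream of the receptors, adenylyl cyclase 1 had the smallest p. Adcy1, a calcium-stimulated cyclase, stood at 249.9, 248 and 259 CPM without defeat and 218, 226 and 225 CPM after it. No stress library reached the non-stress range. Its log2 fold change was -0.18 (SE 0.04), with an edgeR adjusted p of 0.344, and DESeq2 called it, as did edgeR without non-stress 1. Of 9 tested effector genes (potassium channels, calcium channels and cyclases) 8 had values below 0, edgeR called 0, DESeq2 called 1, and 2 had an unadjusted p under 0.05, with a median of -0.06. Kcnj5, a potassium channel subunit, had 0 to 7 counts per library and was not tested. Adcy5 had a log2 change of -0.19 (edgeR adjusted p = 0.414). Adcy8, another calcium-stimulated cyclase, stood at 23.8, 17.4 and 18.8 CPM without defeat and 21.7, 23.7 and 22.7 CPM after it, with overlapping groups (0.18, adjusted p = 0.513). Without non-stress 1 it was called in the opposite direction to Adcy1. Of 9 Gi/o protein genes 7 had values below 0 (median -0.03), and edgeR called 0, DESeq2 called 0 and 0 had an unadjusted p under 0.05. Gnao1, the abundant brain Go subunit, averaged 286 ± 8.03 and 270.6 ± 0.971 CPM (log2 change -0.08, adjusted p = 0.444), with Gnb2 at -0.18 (0.414) and Gng2 at 0.07 (0.639).

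Genes that end receptor signalling had values on both sides of 0, and none passed. Among 14 tested kinases, arrestins, RGS proteins and sorting proteins, 7 had values above 0 and 7 below (median 0.0035), edgeR called 0, DESeq2 called 0, and 3 had an unadjusted p under 0.05. Arrb1, which encodes beta-arrestin 1, stood at 64.6, 66.2 and 61.1 CPM without defeat and 57.0, 57.2 and 55.7 CPM after it (log2 fold change -0.18, edgeR adjusted p = 0.344). The groups did not overlap. Grk2, the kinase that phosphorylates opioid receptors for arrestin, showed a log2 change of -0.19 (adjusted p = 0.401), and Rgs4, which speeds the inactivation of Gi/o proteins, one of 0.19 (adjusted p = 0.354). Rgs4 stood at 647 CPM in non-stress 1, close to the stress libraries at 649 to 665, and was called without non-stress 1.

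Regulators of prodynorphin transcription included the AP-1 subunits Junb and Fos. Junb stood at 108, 109 and 104 CPM without defeat and 89.3, 88.9 and 88.4 CPM after it. Fos stood at 32.8, 27.0 and 27.0 CPM without defeat and 23.7, 23.1 and 22.3 CPM after it. For both genes every stress library lay below every non-stress library, as for Pdyn. Their log2 fold changes were -0.27 and -0.33, with edgeR adjusted p = 0.155 and 0.344, and DESeq2 called both. Of the list's 8 genes 4 had values above 0 and 4 below (median 0.0048), edgeR called 0, DESeq2 called 2, and 2 had an unadjusted p under 0.05. Kcnip3, the calcium-sensitive repressor, stood at 144 ± 6.89 and 143 ± 1.08 CPM, Creb1 at 28.8 ± 4.35 and 29.5 ± 0.938 CPM (both SD, n = 3), and Crem showed a log2 change of 0.06 (adjusted p = 0.749).

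Cells that express these genes were examined through their markers. Pdyn and Penk are abundant in striatal projection neurons, which lie below the cingulate cortex. The 12 striatal markers summed to 293 to 331 CPM without defeat and 286 to 297 CPM after it, ranges that overlap, and non-stress 1 had the lowest sum and the lowest Pdyn of its group. Of 10 tested markers, 5 had values above 0 and 5 below (median -0.0063), edgeR called 0, DESeq2 called 1, and 2 had an unadjusted p under 0.05. Those were Rasd2, a small GTPase, at 55.3 ± 5.80 and 39.4 ± 1.14 CPM (log2 fold change -0.49, edgeR adjusted p = 0.155), and Drd2, the D2 dopamine receptor, at 1.08 ± 0.102 and 0.602 ± 0.133 CPM (-0.85, adjusted p = 0.344). Without non-stress 1, the setting in which edgeR called Pdyn, it also called the striatal markers Ppp1r1b and Rasd2. Gpr6 showed a log2 change of 0.42 (adjusted p = 0.497). Drd1, the D1 receptor carried by the striatal neurons that make dynorphin, stood at 14.3 ± 1.03 and 14.5 ± 0.911 CPM, and Adora2a, which marks those that make enkephalin, at 1.02 ± 0.450 and 0.953 ± 0.471 CPM. The striatal transcription factor genes Six3 and Isl1 had 2 to 15 and 0 to 8 counts per library. Penk, which is abundant in the striatum too, had overlapping groups. The part of striatal tissue in the Pdyn difference was not tested.

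In the cortex itself, 5 of 10 interneuron markers had values above 0 and 5 below (median -0.02), with summed levels of 1227 to 1286 CPM without defeat and 1295 to 1337 CPM after it. The higher sum was not a rise across the list. Of its larger parts, Sst had means of 239.8 and 289.3 CPM, without and after defeat, while Gad1 had 344 and 320 CPM. EdgeR called 0, DESeq2 called 2, and 5 had an unadjusted p under 0.05 (over all genes, 12.1% had such a p and DESeq2 called 1.05%). Sst, the somatostatin gene of the interneuron class that makes much of the cortical dynorphin, stood at 218, 232 and 269 CPM without defeat and 287, 295 and 285 CPM after it. Npy stood at 70.8, 65.2 and 73.0 CPM without defeat and 82.0, 79.3 and 83.2 CPM after it. Both lay higher in every stress library than in any non-stress library. Their log2 fold changes were 0.27 and 0.23 (edgeR adjusted p = 0.344 for both). Slc32a1, the vesicular GABA transporter, showed a log2 change of -0.49 (adjusted p = 0.351), with overlapping groups. The other markers with an unadjusted p under 0.05 lay lower in stress, as Pdyn did: Lhx6, a transcription factor of interneurons that include the Sst class, at 24.8, 29.9 and 27.3 CPM against 24.8, 24.0 and 23.7 CPM (log2 change -0.18, edgeR adjusted p = 0.401), and Gad1, a GABA-synthesising enzyme, at 325, 363 and 345 CPM against 322, 317 and 320 CPM (-0.11, adjusted p = 0.402). Neither of these overlapped between groups, but the lowest non-stress and highest stress values of Lhx6 were equal at the digits printed. The list thus held markers on both sides, and its part in the Pdyn difference was not tested.

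**Figure D5:**
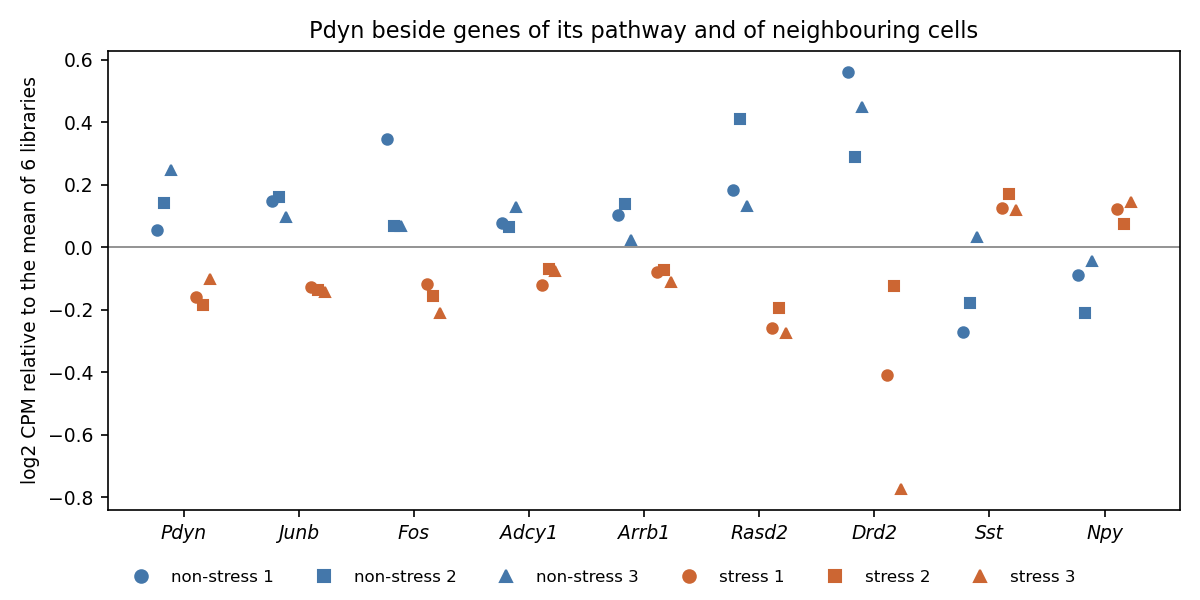
Log2 CPM of Pdyn and of 8 genes among the 3 of smallest p in their lists, each relative to its mean over the 6 libraries (vertical axis). Points are libraries. The 8 genes are a selection from those of small p, and all 8 have groups that do not overlap, so this separation is a description. Junb, Fos, Adcy1, Arrb1, Rasd2 and Drd2 lie lower in stress, as Pdyn does, and Sst and Npy lie higher. Genes of the same rank that are not shown include Slc32a1 and Adcy5, whose groups overlap, and Rgs4, which lies higher in stress without overlap.

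Markers of other cells were read for the same libraries. Markers of layer 6b and the claustrum, where kappa receptors are known to be abundant, had values above 0 in 8 of 8 genes (median 0.22; edgeR called 0, DESeq2 called 1, and 3 had an unadjusted p under 0.05, against 1.05% and 12.1% of all genes), with Ccn2 at 0.40, Cplx3 at 0.28 and Synpr at 0.19. Their summed level was 187 to 224 CPM without defeat and 230 to 242 CPM after it, without overlap. Synpr, whose own groups overlapped, was the largest part of that sum (means 114.5 and 130.9 CPM). Non-stress 1, at 224 CPM, lay nearer to the stress libraries than to non-stress 2 and 3 (187 and 196 CPM). The part of these markers in the values of Oprk1, whose groups did overlap, was not tested. Pituitary hormone genes had higher sums in stress: the list summed to 1.26 to 3.17 CPM in non-stress and 3.79 to 14.1 CPM in stress, with Fshb at 0 in all libraries. Both tested genes of the list, Gh and Pomc, had an unadjusted p under 0.05, edgeR and DESeq2 called 0, and edgeR called both without non-stress 1. Among the untested members Prl, prolactin, had 0, 0 and 0 counts without defeat and 31, 39 and 7 after it, whereas Lhb, a luteinising hormone subunit, had 5, 4 and 5 counts without defeat and 0 in each stress library. Cga, Tshb and Pou1f1 had 0 to 15 counts per library. Gh, growth hormone, was at 0.208, 0.128 and 0 CPM without defeat and 8.13, 9.18 and 0.668 CPM after it, so stress 1 and 2 carried most of that sum and stress 3 did not (edgeR adjusted p = 0.285). Pomc, the precursor of the opioid beta-endorphin, which is made in the pituitary and hypothalamus and is not among the 7 genes, stood at 2.50, 1.42 and 1.09 CPM without defeat and 3.98, 3.40 and 2.63 CPM after it (log2 fold change 0.99, edgeR adjusted p = 0.344). Its stress values exceeded all non-stress values, and its source in the tissue was not tested. The summed level of fibroblast and meningeal markers lay lower in stress (268 to 284 CPM against 258 to 261). Most of that sum was Ptgds (means 267 and 247 CPM), while 5 of the 8 genes had values above 0 (median log2 fold change 0.25). Astrocyte markers (881 to 925 against 854 to 880) barely parted, with 880.7 CPM as the lowest non-stress and 879.9 CPM as the highest stress sum, and 2 of 5 genes had values above 0. Gfap, a small part of that sum, differed most among the non-stress libraries. It stood at 26.6, 5.34 and 4.73 CPM in non-stress 1, 2 and 3 and at 13.2, 12.5 and 14.5 CPM in stress 1, 2 and 3. The sums of oligodendrocyte lineage (4711 to 5838 against 5205 to 5638) and microglia markers (421 to 432 against 408 to 431) overlapped. Hypothalamic markers summed to 2.12 to 3.24 and 3.50 to 3.53 CPM. In the meningeal, astrocyte, oligodendrocyte, microglia and hypothalamic lists edgeR and DESeq2 called 0 genes, and 0 to 1 gene per list had an unadjusted p under 0.05. Without non-stress 1, in a fit that called 3.85% of all genes, edgeR called Dcn and Gfap in these lists. Among the genes of smallest p were Ptgds (-0.11), Dcn (0.48) and Col3a1 (0.59) in the meningeal list, Aldh1l1 (-0.17), Aqp4 (0.08) and Gja1 (-0.05) in the astrocyte list, Cspg4 (0.18) and Olig2 (0.09) in the oligodendrocyte list, Csf1r (-0.12), Tmem119 (-0.12) and Cx3cr1 (0.13) in the microglia list, and Pmch (0.57), Avp (0.88) and Agrp (0.75) in the hypothalamic list, all as log2 fold changes. Among cortical excitatory markers they were Neurod6 (0.19), Foxp2 (0.25) and Neurod2 (-0.13), with 5 of 10 above 0 and a median of 0.0086. In that list 2 genes had an unadjusted p under 0.05, edgeR called 0, DESeq2 called Neurod6, and edgeR without non-stress 1 called Neurod6 and Cux2.

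The pattern of each member over the 6 libraries was compared with that of 9594 or 9595 other genes of at least 10 CPM. Most like Pdyn were Cpm, which encodes carboxypeptidase M, Timp3, a metalloproteinase inhibitor, and Snrnp200, a spliceosomal helicase (Pearson r of log2 CPM 0.995, 0.992 and 0.991). For Pdyn 50 genes exceeded 0.95, for Penk 43, for Oprl1 49, and for each other member 5 to 12. Most like Penk were Klhl34, Lactb and Zfp120 (0.995, 0.995 and 0.993), and most like Pnoc were Lmcd1, Lysmd3 and Glo1 (0.987, 0.986 and 0.980). Among receptors the nearest were Mccc1, Acbd6 and Trappc11 for Oprk1 (0.956, 0.954 and 0.953), Snx24, Lpar1 and Aptx for Oprm1 (0.986, 0.977 and 0.974), Mapkapk5, Rai2 and Zfp35 for Oprd1 (0.992, 0.989 and 0.984) and Acad9, Mapre3 and Sf1 for Oprl1 (0.986, 0.980 and 0.979). The values describe these 6 libraries and were chosen as the highest among all candidates.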

How the data were processed

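Gene expression was measured by RNA-seq in 6 libraries. Per the labels' protocols, total RNA was made into libraries by SMARTer Ultra low chemistry and TruSeq construction. Per the submitters' processing notes, Trimmomatic 0.38, HISAT2 and StringTie were used with build GRCm38 (mm10). The sources used here do not give the counting step, annotation release, use of strand or treatment of multiply mapped reads. The authors deposited 1 table of whole-number counts per gene, which had not been normalised and was used unchanged.

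Of 45777 genes, filterByExpr kept 19227. The groups were compared by edgeR 4.0.16 (R 4.3.3; TMM, quasi-likelihood test, group as the single term, two-sided), with Benjamini-Hochberg adjustment over all genes and a threshold of 0.05. Intervals for fold changes are 95% intervals from its moderated t distribution. CPM use TMM-scaled totals, and 3 counts are 0.0638 to 0.0723 CPM. Ratios were tested by exact permutation over 20 arrangements (scipy 1.17.1). Alternatives used DESeq2 1.42.0, limma 3.58.1, other factors and filters, left-out libraries, replicate number as a block, and removal of a loess trend (span 0.3) on GC content and transcript length, known for 17301 genes (90.0%). Exon lengths and transcripts came from GENCODE M21. Tests were tried on simulated data.

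The members, lists and alternatives were chosen with earlier results of these data known. All members were named, with up to 3 genes of smallest p in each list and the 3 of highest Pearson correlation with each member. Cpe, Pcsk2, Creb1, Kcnip3, Drd1, Adora2a, Lhx6, Gad1, Cux2, Ppp1r1b and the untested genes given were named outside that rule, after their values were seen. Lists are described by counts and medians. Some list genes are not reported here.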

Additional observations from a re-analysis of the deposited data

How the results depend on the processing

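Under 16 alternatives the log2 fold change of Pdyn stayed below 0, from -0.35 to -0.20, and adjusted p-values ranged from 0.00858 to 0.732. Pdyn passed the threshold in 2 of them, DESeq2's Wald test (-0.30, 1 of the 7 members called) and the fit without non-stress 1 (-0.35, 1 member called). Leaving out each library gave -0.35 to -0.25 for Pdyn, 0 to 1 members called and 1 to 756 genes called over the whole table, with 756 without non-stress 1. The whole-table count was 1 with all libraries, 127 with DESeq2, 2 with limma-voom, 14 with limma-voom and quality weights, 63 with non-stress 1 alone as the reference and 3 with the trend on GC content and length removed. With replicate number as a block it was 2, and no member's call changed (Pdyn -0.30, adjusted p = 0.282). Deviations of same-numbered libraries correlated at 0.016, -0.03 and 0.021, so the numbers are not taken to pair the libraries. Signs turned for Penk (-0.0003 without non-stress 2, -0.0361 with non-stress 1 alone), Oprk1 (-0.0281 without non-stress 1) and Oprd1 (0.0158 with the trend removed). Over left-out libraries Penk spanned -0.0003 to 0.0912 and Oprk1 -0.0281 to 0.34. The cause was not tested. Pnoc, Oprl1 and Oprm1 kept their direction in every alternative that gave a value, and none of the 3 passed. Oprm1 had no adjusted p in DESeq2 and did not reach 50 counts in 3 libraries. The ratios of Pdyn to Penk, Pnoc and Oprk1 kept their direction with a prior count of 0.5 as well. Oprm1 had 25 to 49 counts per library, the fewest of the 7.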
